A study of Danio rerio with 4 samples.

Results

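Solute carriers are the membrane proteins that move amino acids, sugars, ions, nucleotides, vitamins and metabolites across the cell surface and across the membranes of organelles. They were taken as all genes whose symbol in the array's annotation begins with slc and a family number, apart from slc8a1a, which the rule leaves out. The array held 337 such genes among 15528 named genes, and 217 of them could be tested, among 11349 tested genes in all. Each gene is described by its brightest probe, taken by the mean over the 4 arrays, and 132 of the 337 genes had further probes that serve as a check.

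RNA came from zebrafish hearts dissected whole by hand between 21 and 23 hours post fertilization (hpf) and pooled over embryos. The Bmp2b hearts were from embryos that carry Tg(hsp70l:bmp2b)fr13, a transgene that puts the secreted ligand Bmp2b under a heat shock promoter active throughout the embryo, so the ligand was not limited to the heart. The WT hearts were from wild-type embryos, and both groups were heat-shocked at 18 hpf for 30 min at 37 °C, so the heat shock is common to both. Each group had 2 arrays, made from 200 ng of total RNA each after a single amplification with Cy3 labelling. Both Bmp2b arrays were on slide 3 and the WT arrays were on slides 1 and 2, so slide and genotype cannot be told apart. Nothing in the labels says that the pools of a group came from separate clutches, and p-values measure only the spread between these arrays.

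Transporters work in series with the metabolism of a cell. Heteromeric amino acid exchangers join a light subunit of the slc7 family to a heavy subunit of the slc3 family, and swap amino acids that sodium-coupled carriers such as those of slc38 and slc1 have concentrated. Glucose enters through slc2 and slc5 carriers, lactate moves through slc16 carriers, ions through slc4, slc8, slc9, slc12 and slc26 proteins, and the slc25 family joins the cytosol to the mitochondrial matrix. In the early heart, these genes supply a muscle that starts to contract around this stage. Roles named here for single genes are mostly known from the mammalian proteins.

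The Bmp2b arrays were dimmer: 131 and 180 of the 337 genes lay above background on Bmp2b arrays 1 and 2, against 223 and 222 on the WT arrays. Background was 2 times the 5th percentile of raw intensity on the array, and a gene was tested where its probe exceeded it on at least 2 arrays. On all 4 arrays 130 of the 337 were above background, on 2 or 3 arrays 87, on 1 array 18, and on none 102. Of the 217 tested, 41 lay below background on each Bmp2b array and passed only through WT, and slc25a47a alone passed only through Bmp2b. The transgene's own product, bmp2b, reached 13.74 and 14.03 (normalized log2 intensity) on the Bmp2b arrays, against 7.86 and 8.09 on the WT arrays. Over 25 probes with 5 spots each, the root mean square difference between the WT arrays was 0.0733 log2 units, less than the 0.121 that the spread between spots gives, whereas the Bmp2b arrays differed by 1.04, against 0.123 from spots. The WT arrays thus agreed within the noise of their spots, and the total count of calls was repeated with their mean counted as 1 sample. Counts by class, family, partner list and marker list are not given in that way, so they rest on the WT arrays as separate samples. Among heart muscle markers, 9 of 10 were above background on at least 2 arrays, and myl4 was below it on all 4. Because whole hearts were measured, fewer cells of a type and less RNA per cell cannot be told apart.

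In Bmp2b hearts 22 solute carrier genes were higher and 23 were lower than in WT, and 172 did not pass the test (limma, Benjamini-Hochberg over all probes, adjusted p under 0.05). That is 20.7% of the 217, beside 17.3% of all genes tested. Of all genes tested 9.02% were called higher and 8.23% lower. With the WT arrays counted as 1 sample, limma with a variance trend and robust fit called 3 higher (slc1a4, slc25a10b and slc7a3a) and 1 lower (slc25a55b), beside 0.855% of all genes (0.449% higher and 0.405% lower), and limma without the trend called none in either direction. At an unadjusted p under 0.05 with all 4 arrays, 87 of the 217 passed, beside 4363 of all 11349 genes tested, so passing at that level was common. The median log2 fold change, Bmp2b over WT, was -0.04 over the 217 genes and 0.01 over all genes tested. When arrays were scaled to their 75th percentile rather than quantile-normalized, these medians were 0.35 and 0.14, and 12 solute carrier genes were called higher and 5 lower. The share of all genes called under that scaling is not given, so these counts have no such share beside them. The groups did not overlap for 152 of the 217 genes, beside 68.6% of all genes: 75 had higher Bmp2b arrays, beside 34.9%, and 77 lower ones, beside 33.7%, so a gap between groups alone was common on these arrays.

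By fitted fold, 16 of the genes called higher and 8 of those called lower differed at least 2-fold, where 4.05% and 3.68% of all genes were called and at least 2-fold higher or lower. Of the 8 lower ones, slc18a3b and slc26a1 were below background on both Bmp2b arrays and have only bounds, of 1.60-fold and 1.37-fold, so 6 were measured as at least 2-fold lower. Of all 23 lower genes, 3 were below background on both Bmp2b arrays. The lower genes slc8a3, slc25a25b, slc33a1 and slc35e3 were below it on Bmp2b array 1 alone, so their fitted sizes rest in part on an unmeasured level. The plot of classes shows the calls by substrate, to be read beside 9.02% of all genes tested called higher and 8.23% lower. Amino acid carriers had 6 higher and 2 lower among 41 tested, and inorganic ion carriers 0 higher and 5 lower among 26. Mitochondrial carriers had 6 and 4 among 38, carriers of organic anions and cations 5 and 1 among 28, and carriers of nucleosides and nucleotide sugars 1 and 4 among 24. Metals had 1 and 3 among 20, sugars and sugar phosphates 1 and 1 among 19, and lipids and vitamins 2 and 2 among 15. Among the transporter classes, the median log2 fold change lay between -0.16 for inorganic ions (0.20 when scaled to the 75th percentile) and 0.16 for amino acids (0.64 when so scaled). With that scaling the order of the classes changed, and the medians ran from -0.32 for metals to 0.80 for sugars and sugar phosphates. The medians also depended on dim genes. Over probes above background on all 4 arrays, they ran from -0.15 for metals (16 genes) to 0.69 for organic anions and cations (9 genes). Inorganic ions were then at -0.01 (14 genes) and amino acids at 0.23 (29 genes). Differences between classes were not tested.

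**Figure D1:**
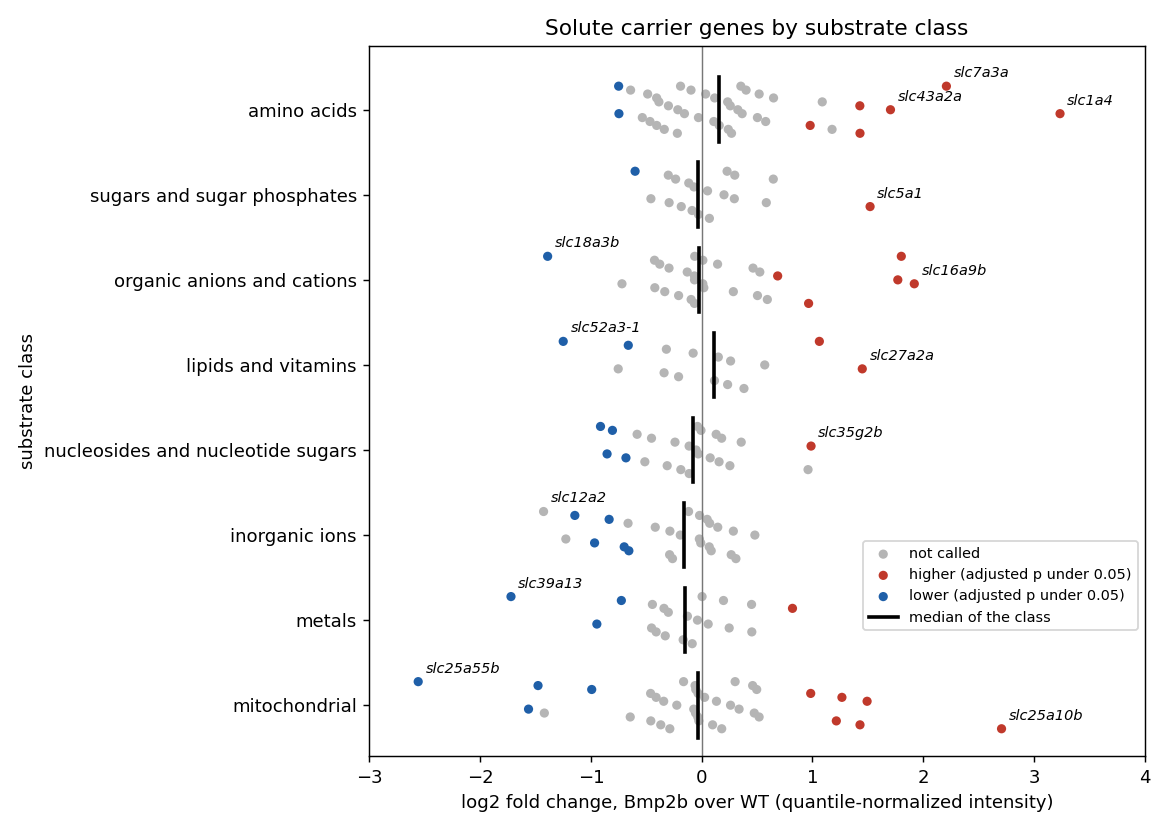
Log2 fold change of each tested solute carrier gene (points, 1 probe a gene), Bmp2b over WT on quantile-normalized intensity, by substrate class, with called genes in colour and the class median as a bar. The amino acid and mitochondrial classes reach farthest to the right, at slc1a4 (3.24) and slc25a10b (2.71), and no inorganic ion carrier is called higher. Scaled to the 75th percentile, the medians of inorganic ions, mitochondrial carriers, nucleosides, organic ions and sugars turn positive.

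Carriers of neutral and cationic amino acids included the largest rise of any solute carrier gene. The gene slc1a4 encodes a sodium-dependent exchanger of small neutral amino acids such as alanine, serine and cysteine. In normalized log2 intensity it read 12.59 and 12.28 on the Bmp2b arrays and 9.20 and 9.21 on the WT arrays. Both Bmp2b arrays lay far above both WT arrays, and the gene was 9.42-fold higher (log2 fold change 3.24 ± 0.15, SE; limma adjusted p = 0.0138). In raw intensity, before any scaling, slc1a4 read 2105 and 4623 on the Bmp2b arrays and 967 and 946 on the WT arrays. With WT as 1 sample it still passed (limma adjusted p = 0.0074). Its other probes rose too, by 2.73, 0.61 and 0.65 log2 units, so all 4 probes were called higher while their sizes differed. The probes at 0.61 and 0.65 were below background on Bmp2b array 1, so their sizes rest in part on an unmeasured level.

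Alongside slc1a4, 3 of the 8 tested transporters of the slc7 family were called higher, beside 9.02% of all genes tested, and none was called lower. slc7a3a, a carrier of the cationic amino acids arginine and lysine, read 10.84 and 10.56 on the Bmp2b arrays and 8.46 and 8.53 on the WT arrays. This was 4.62-fold higher (log2 fold change 2.21 ± 0.15, SE; limma adjusted p = 0.0167), and it also passed with WT as 1 sample (adjusted p = 0.0453). slc7a5, the light subunit of the exchanger of large neutral amino acids such as leucine, read 7.58 and 7.91 on the Bmp2b arrays and 6.33 and 6.31 on the WT arrays. The groups were well apart, at 2.69-fold (log2 fold change 1.43 ± 0.16, SE; limma adjusted p = 0.0218). slc7a10a, whose mammalian counterpart exchanges small neutral amino acids, read 8.92 and 8.79 on the Bmp2b arrays and 7.45 and 7.41 on the WT arrays (log2 fold change 1.43 ± 0.12, SE). slc7a5 and slc7a10a were no longer called with WT as 1 sample.

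The heavy subunit that partners slc7a5 exists as a pair of copies in zebrafish. slc3a2b read 11.58 and 11.53 on the Bmp2b arrays and 10.57 on each WT array, and was 1.97-fold higher (log2 fold change 0.98 ± 0.11, SE; limma adjusted p = 0.0218). Of its other probes, 1 rose by 1.14 and 1 had a log2 fold change of 0.91 that missed the threshold (adjusted p = 0.0527). The copy slc3a2a read 8.28 and 8.19 on the Bmp2b arrays and 8.79 and 8.75 on the WT arrays, with a log2 fold change of -0.54 that did not pass (adjusted p = 0.0507). slc3a1, the heavy subunit of a cystine and basic amino acid exchanger, read 8.37 and 7.44 on the Bmp2b arrays and 6.77 and 6.85 on the WT arrays. Its groups were apart, but its Bmp2b arrays differed widely, and it did not pass (adjusted p = 0.107).

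slc43a2a, a facilitative carrier of large neutral amino acids, read 11.56 and 10.88 on the Bmp2b arrays and 9.52 on each WT array, which was 3.26-fold higher (log2 fold change 1.70 ± 0.26, SE; limma adjusted p = 0.0316). Its other probe had a log2 fold change of 1.01 that did not pass. slc16a10, an aromatic amino acid carrier, read 12.52 and 11.71 on the Bmp2b arrays and 10.89 and 10.99 on the WT arrays, and did not pass either (log2 fold change 1.18, adjusted p = 0.0743). The class's 2 lower genes were slc38a7, a glutamine carrier of the lysosome, at -0.75 log2 units, and slc32a1, which loads GABA and glycine into synaptic vesicles, also at -0.75. Another probe of slc38a7 had a value of -0.24 that did not pass (adjusted p = 0.268). Scaled to the 75th percentile, slc1a4, slc7a3a, slc7a5 and slc7a10a were still called, and slc43a2a (adjusted p = 0.0513), slc3a2b (0.113), slc38a7 and slc32a1 were not.

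The remaining amino acid carriers stayed below the threshold. slc38a4, the sodium-coupled carrier with the highest probe of the class, read 14.27 and 13.95 on the Bmp2b arrays and 13.41 and 13.52 on the WT arrays (log2 fold change 0.65, adjusted p = 0.0683). slc38a2, a sodium-coupled carrier that mammalian cells induce when starved of amino acids, read 12.27 and 11.84 on the Bmp2b arrays and 11.90 and 11.99 on the WT arrays, so its groups overlapped. slc1a5, which carries glutamine, was at a log2 difference of 0.35 and missed the threshold (adjusted p = 0.119). The related carriers slc43a1a and slc43a1b had values of -0.34 and -0.41 that did not pass, although another probe of each was called lower.

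Because slc1a4, slc7a5 and slc3a2b are known targets of the amino acid response in mammals, the genes of that response were read beside them. Of 13 tested, 2 rose and 2 fell (30.8% called, beside 17.3% of all genes tested). The log2 fold change was positive in 6 of the 13, and the list's median was -0.19. sesn2, an inhibitor of the growth kinase complex mTORC1, had a log2 fold change of 3.55 and ddit4, another inhibitor of it, 1.71. The glutathione-degrading enzyme gene chac1 fell by 1.32 and the kinase gene eif2ak3 fell by 0.86 on the log2 scale, the call of eif2ak3 being lost with scaling to the 75th percentile (adjusted p = 0.0649). The transcription factor gene atf4a had a value of 0.21 (adjusted p = 0.239), and asns, asparagine synthetase, 0.89 (adjusted p = 0.0508), neither of which passed. Uncalled genes with negative values included ddit3, at -1.23 (adjusted p = 0.120), and ppp1r15a, at -0.81 (adjusted p = 0.0614). The part of this response in the rises of slc1a4, slc7a5 and slc3a2b was not tested.

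**Figure D2:**
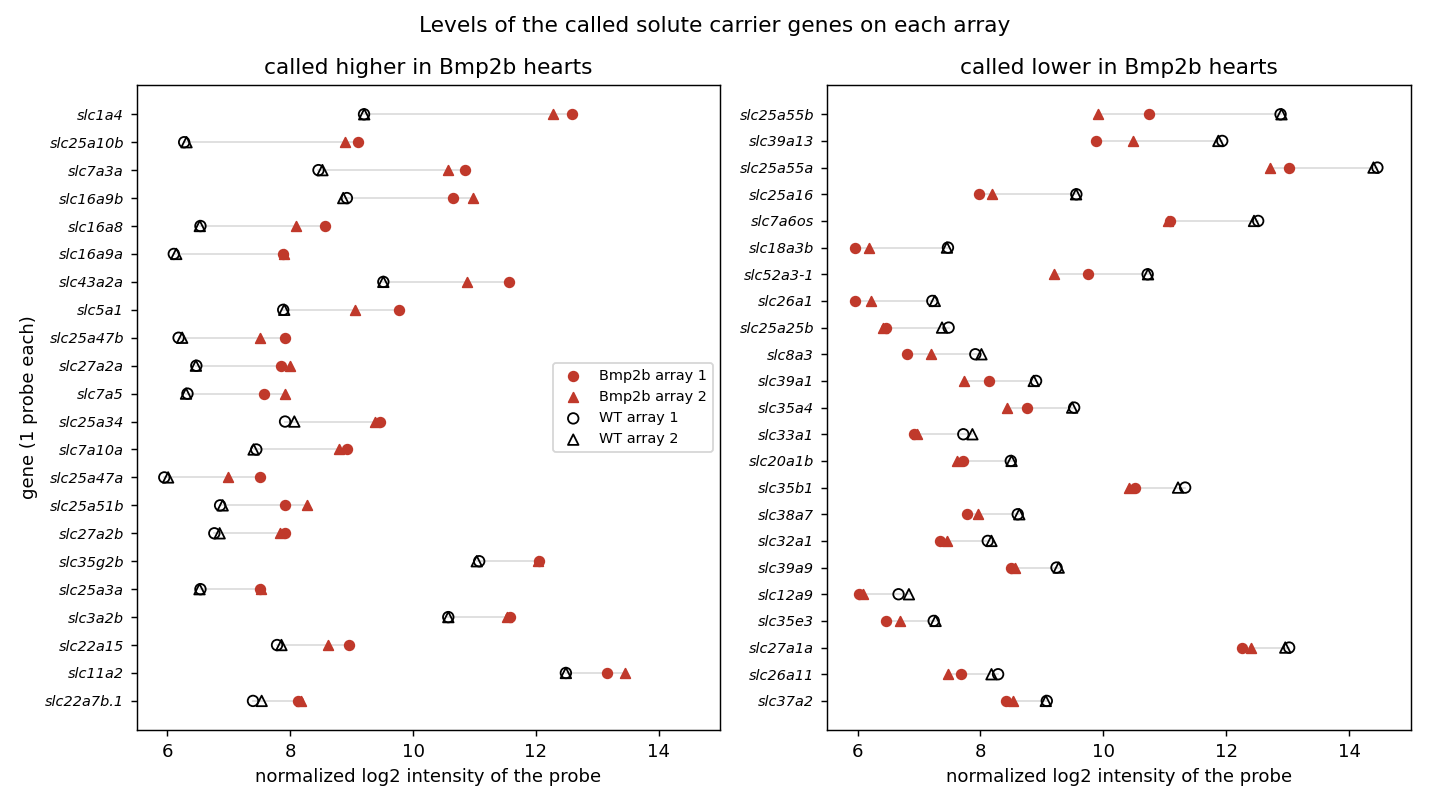
Normalized log2 intensity of each called solute carrier gene on the Bmp2b arrays (filled red) and the WT arrays (open black), 1 row a gene, with genes called higher on the left and lower on the right. The WT symbols of a row nearly coincide, and the Bmp2b symbols lie apart from them on one side in every row shown. Only called genes are shown, and the test selects for such a separation. slc12a9, slc18a3b and slc26a1, among the lower genes, are below background on both Bmp2b arrays, and slc12a9 changes sign when arrays are scaled to the 75th percentile.

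The slc16 family holds carriers of monocarboxylates, the small acids that include lactate, and also carriers of other substrates. Of 10 tested slc16 genes, slc16a10 among them, 3 were called higher (30.0%, beside 9.02% of all genes tested) and none was called lower. slc16a9b read 10.65 and 10.98 on the Bmp2b arrays and 8.92 and 8.86 on the WT arrays, which was 3.78-fold higher (log2 fold change 1.92 ± 0.16, SE; limma adjusted p = 0.0190). Another probe of slc16a9b had a value of 0.70 that did not pass (adjusted p = 0.0805). The copy slc16a9a read 7.89 and 7.90 on the Bmp2b arrays and 6.11 and 6.15 on the WT arrays, 3.41-fold higher (adjusted p = 0.0153). The human counterpart of this pair exports carnitine and creatine. slc16a8, a lactate exporter best known from the retinal pigment epithelium of mammals, read 8.57 and 8.10 on the Bmp2b arrays and 6.54 and 6.53 on the WT arrays (3.49-fold, adjusted p = 0.0217). In all these genes both Bmp2b arrays were above both WT arrays, a separation that the test selects for.

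The other slc16 genes did not pass the test. slc16a3b, a lactate exporter of glycolytic cells, read 12.96 and 12.38 on the Bmp2b arrays and 12.33 and 12.44 on the WT arrays, so its groups overlapped (log2 fold change 0.29, adjusted p = 0.432). slc16a1a and slc16a1b, the copies of the most widespread lactate carrier, did not exceed background on either Bmp2b array and were not called. The chaperone that brings several of these proteins to the cell surface, bsg, was at 0.49 on the same scale and did not pass (adjusted p = 0.0958). Scaled to the 75th percentile, slc16a8 and slc16a9a were still called and slc16a9b was not (adjusted p = 0.0535).

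Further calls fell among other organic ion carriers. slc22a15 and slc22a7b.1, of a family of organic cation and anion carriers, were higher by 0.97 and 0.69 log2 units. Another probe of slc22a15, below background on Bmp2b array 1, had a value of -0.15. slc18a3b encodes the vesicular acetylcholine transporter of cholinergic neurons. It did not exceed background on either Bmp2b array, at 5.96 and 6.18, and read 7.47 and 7.46 on the WT arrays, so it was at least 1.60-fold lower (limma adjusted p = 0.0204). The bound sets the mean of the WT arrays against the lowest level measurable above background on each Bmp2b array. None of these 3 was called when arrays were scaled to the 75th percentile.

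Glucose carriers gave few calls. None of the 9 tested slc2 genes, the facilitative glucose carriers, was called. Only 2 of them, slc2a10 and slc2a12, were above background on all 4 arrays, so the other values rest in part on unmeasured levels. The fitted log2 fold changes of the 9 lay between -0.30, for slc2a3b, which exceeded background only in WT, and 0.58. Their median was -0.03, beside 0.01 for all genes tested. Scaled to the 75th percentile it was 0.86, beside 0.14, so the size of these values depended on the scaling. slc2a10, the slc2 gene with the highest probe, read 10.69 and 10.77 on the Bmp2b arrays and 10.46 and 10.54 on the WT arrays (log2 fold change 0.23, adjusted p = 0.224). The probe of slc2a1a was below background and was not tested, while slc2a1b was above background only on the WT arrays and was not called. slc5a1, the sodium-coupled glucose carrier of absorptive epithelia, was the class's only rise, at 9.78 and 9.05 on the Bmp2b arrays and 7.89 and 7.90 on the WT arrays. This was 2.87-fold higher (log2 fold change 1.52 ± 0.28, SE, limma adjusted p = 0.0409). A dimmer probe of the gene had a value of -0.27 and did not pass, but it was below background on both Bmp2b arrays, at 5.83 and 5.93, so its sign says little. slc37a2, a sugar phosphate exchanger of the endoplasmic reticulum, was lower by 0.60 log2 units (log2 fold change -0.60, adjusted p = 0.0436). Neither slc5a1 nor slc37a2 was called when arrays were scaled to the 75th percentile.

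Glycolytic enzyme genes, which act on the sugar these carriers bring in, were read as partners. Of 21 tested, 4 rose and none fell, beside 9.02% of all genes tested called higher and 8.23% called lower. The rises were 1.44 log2 units for pfkpa, 1.05 for gapdhs, 0.78 for aldoab and 0.71 for ldhba. None of the 4 was called when arrays were scaled to the 75th percentile (adjusted p between 0.0502 and 0.183). The list's median log2 fold change was 0.32, with 15 of the 21 values positive. Scaled to the 75th percentile the median was 0.08, beside 0.14 for all genes tested.

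Inorganic ion carriers had no called rise. Of 26 tested, 5 were lower (19.2%, beside 8.23% of all genes tested). Among the 5, slc26a1 and slc12a9 were below background on both Bmp2b arrays and passed the filter only through WT. When only probes above background on all 4 arrays were tested, 2 of 14 were lower. The median log2 fold change of the 26 was -0.16. It turned to 0.20 with scaling to the 75th percentile, where none of the 26 was called. slc8a3, a sodium/calcium exchanger that removes calcium from excitable cells, read 6.81 and 7.19 on the Bmp2b arrays and 7.92 and 8.02 on the WT arrays (log2 fold change -0.97 ± 0.18, SE, limma adjusted p = 0.0410). Its reading on Bmp2b array 1 was below background. slc20a1b, a sodium-coupled phosphate importer, read 7.72 and 7.61 on the Bmp2b arrays and 8.49 and 8.51 on the WT arrays (log2 fold change -0.84, adjusted p = 0.0271). Its copy slc20a1a did not exceed background on either Bmp2b array and was not called.

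The sulfate carrier genes of slc26 include slc26a1, which did not exceed background on either Bmp2b array, at 5.96 and 6.22, against 7.22 and 7.26 on the WT arrays. It was at least 1.37-fold lower (adjusted p = 0.0239). slc26a11 was lower by 0.66 log2 units (log2 fold change -0.66, adjusted p = 0.0491), with another probe at 0.09. slc12a9, of the cation-chloride cotransporter family, was called lower (adjusted p = 0.0394) but did not exceed background on either Bmp2b array, at 6.02 and 6.09, against 6.67 and 6.84 on the WT arrays. The WT level of slc12a9 is below 7.16, the lowest level above background on Bmp2b array 1, so no size can be given for its difference, whose sign turned with scaling to the 75th percentile.

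The members of this class with the widest differences in value did not pass. slc12a2, the sodium-potassium-chloride cotransporter that loads cells with chloride, read 8.20 and 9.26 on the Bmp2b arrays and 10.16 on each WT array (log2 fold change -1.43, adjusted p = 0.0791). A dimmer probe of slc12a2 was called lower, at -1.07. slc8a4b, another sodium/calcium exchanger, read 8.42 and 7.45 on the Bmp2b arrays and 9.46 and 8.87 on the WT arrays (log2 fold change -1.23, adjusted p = 0.119). For slc12a7b, a potassium-chloride cotransporter with the highest probe of the class, the brightest probe had a value of -0.42 (adjusted p = 0.375) and a dimmer probe was called lower at -1.98. The sodium pump sets the gradient that most of these carriers use. Among its 11 tested subunit genes, 1 was higher (atp1b2b, 1.19) and 1 lower (atp1b2a, -1.59). That is 18.2% called, beside 17.3% of all genes tested. The rise of atp1b2b was lost with scaling to the 75th percentile (adjusted p = 0.0631).

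Zinc importers of the slc39 family were called lower in 3 of 7 tested cases (42.9%, beside 8.23% of all genes tested), and none was called higher. slc39a13, a zinc carrier of intracellular vesicles, read 9.88 and 10.49 on the Bmp2b arrays and 11.94 and 11.87 on the WT arrays. It was 3.30-fold lower (log2 fold change -1.72 ± 0.24, SE; limma adjusted p = 0.0280). slc39a1 and slc39a9 were lower by 0.95 and 0.73 log2 units (log2 fold changes -0.95 and -0.73). None of these 3 was called when arrays were scaled to the 75th percentile, at adjusted p between 0.0574 and 0.0854. Another probe of slc39a1 had a value of -0.42 that did not pass (adjusted p = 0.0828). slc39a7, a zinc carrier of the secretory pathway with the highest probe among metal carriers, had a value of -0.33 (adjusted p = 0.202). The only positive value of the family was that of slc39a3, at 10.12 and 10.43 on the Bmp2b arrays and 9.81 and 9.84 on the WT arrays (log2 fold change 0.45, adjusted p = 0.121). None of the 6 tested zinc exporters of slc30 was called.

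Iron carriers gave a mixed reading. slc11a2, the importer of ferrous iron that red cell precursors need, read 13.16 and 13.45 on the Bmp2b arrays and 12.49 on each WT array with its brightest probe, which was called higher (log2 fold change 0.82, adjusted p = 0.0406). Another probe read 8.63 and 8.86 on the Bmp2b arrays and 9.55 and 9.61 on the WT arrays, and was called lower (log2 fold change -0.83, adjusted p = 0.0343). A further one had a value of -0.10. The probes of slc11a2 thus disagreed in direction, its mean over probes was -0.04, and the brightest probe was not called when arrays were scaled to the 75th percentile. The iron exporter gene slc40a1 had overlapping groups, at 11.84 and 11.14 on the Bmp2b arrays and 11.22 and 11.27 on the WT arrays.

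Mitochondrial carriers held both a large rise and the largest fall. slc25a10b, the dicarboxylate carrier that exchanges malate and succinate for phosphate, read 9.11 and 8.89 on the Bmp2b arrays and 6.28 and 6.31 on the WT arrays. It was 6.53-fold higher (log2 fold change 2.71 ± 0.13, SE; limma adjusted p = 0.0138), and it also passed with WT as 1 sample (adjusted p = 0.0247). Another probe of the gene, at 6.62 and 6.58 on the Bmp2b arrays and 6.83 and 6.96 on the WT arrays, had a value of -0.29 and did not pass. It was below background on Bmp2b array 1. The rise of slc25a10b thus rests on 1 probe.

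slc25a47a and slc25a47b, copies of a carrier that mammals express mainly in liver, were both higher. slc25a47b read 7.91 and 7.50 on the Bmp2b arrays and 6.18 and 6.24 on the WT arrays (log2 fold change 1.49 ± 0.18, SE; adjusted p = 0.0234). slc25a47a read 7.51 and 6.99 on the Bmp2b arrays and was below background on both WT arrays, at 5.95 and 6.01, so it was at least 2.25-fold higher (adjusted p = 0.0364). slc25a34, another member of the family, was higher by 1.43 log2 units. slc25a51b, whose human counterpart imports NAD into mitochondria, read 7.91 and 8.28 on the Bmp2b arrays and 6.86 and 6.90 on the WT arrays (log2 fold change 1.22, adjusted p = 0.0278). slc25a3a, a copy of the phosphate carrier that feeds ATP synthesis, was higher by 0.98, whereas the bright copy slc25a3b read 15.93 and 16.30 on the Bmp2b arrays and 16.07 and 16.11 on the WT arrays, with overlapping groups.

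The pair slc25a55a and slc25a55b fell. slc25a55b read 10.75 and 9.92 on the Bmp2b arrays and 12.89 and 12.90 on the WT arrays, which was 5.89-fold lower (log2 fold change -2.56 ± 0.31, SE; limma adjusted p = 0.0238). It also passed with WT as 1 sample (adjusted p = 0.0382). slc25a55a read 13.02 and 12.72 on the Bmp2b arrays and 14.46 and 14.40 on the WT arrays (log2 fold change -1.56 ± 0.15, SE; adjusted p = 0.0204). Its other probes were called lower too, at -2.67 and -2.98, so every tested probe of the pair was lower. Next came slc25a16, at 7.98 and 8.19 on the Bmp2b arrays and 9.56 on each WT array (log2 fold change -1.48 ± 0.13, SE; adjusted p = 0.0192).

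slc25a25b, a carrier of ATP-magnesium in exchange for phosphate, was lower at -0.99 (adjusted p = 0.0227). Its copy slc25a25a read 11.21 and 9.83 on the Bmp2b arrays and 11.94 on each WT array, and did not pass (log2 fold change -1.42, adjusted p = 0.128). Among the 28 uncalled mitochondrial carriers was slc25a12, an aspartate-glutamate exchanger of the malate-aspartate shuttle, at a log2 fold change of -0.06. Scaled to the 75th percentile, 4 of the 6 higher and 3 of the 4 lower mitochondrial carriers were still called.

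Fatty acid carriers moved in both directions. slc27a2a read 7.85 and 7.99 on the Bmp2b arrays and 6.47 on each WT array, 2.73-fold higher (log2 fold change 1.45 ± 0.12, SE; limma adjusted p = 0.0190). Its copy slc27a2b was 2.09-fold higher (adjusted p = 0.0215). Their mammalian counterpart takes up long-chain fatty acids and activates very long ones. slc27a1a, the copy of the form found in mammalian muscle and fat, read 12.26 and 12.40 on the Bmp2b arrays and 13.03 and 12.96 on the WT arrays and was lower (log2 fold change -0.66, adjusted p = 0.0399). slc52a3-1, of the riboflavin carriers, read 9.75 and 9.20 on the Bmp2b arrays and 10.72 and 10.73 on the WT arrays (log2 fold change -1.25 ± 0.22, SE; adjusted p = 0.0383). The folate carrier gene slc46a1, at -0.75, did not pass (adjusted p = 0.102). With scaling to the 75th percentile the calls of slc27a2a, slc27a2b and slc52a3-1 were kept and that of slc27a1a was not (adjusted p = 0.0874).

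The class of nucleosides and nucleotide sugars had 4 lower genes and 1 higher one among 24 tested (20.8% called, beside 17.3% of all genes tested). Of these, 3 lower and the higher one are among the 20 tested genes of slc35, a family that mostly carries nucleotide sugars for glycosylation in the Golgi and the endoplasmic reticulum. slc35a4 and slc35b1 were lower at log2 fold changes of -0.91 and -0.81, slc33a1, which brings acetyl-CoA into the endoplasmic reticulum, at -0.85, and slc35e3 at -0.68. Of these, slc33a1 and slc35e3 were below background on Bmp2b array 1, at 6.91 and 6.46. Another probe of slc35e3, below background on both Bmp2b arrays, had a value of -0.09 that did not pass (adjusted p = 0.580). slc35b1, which in human cells exchanges ATP for ADP across the endoplasmic reticulum membrane, read 10.51 and 10.43 on the Bmp2b arrays and 11.33 and 11.22 on the WT arrays. slc35g2b was the exception, at 12.05 and 12.04 on the Bmp2b arrays and 11.08 and 11.04 on the WT arrays (log2 fold change 0.99 ± 0.11, SE; limma adjusted p = 0.0217). slc43a3b, a purine base carrier, read 12.81 and 12.28 on the Bmp2b arrays and 11.60 and 11.57 on the WT arrays and did not pass (log2 fold change 0.96, adjusted p = 0.0574). Of the equilibrative nucleoside carriers, slc29a2 had a value of 0.13 with its brightest probe, while a dimmer probe was called higher at 1.18. None of the 5 calls by brightest probe was kept when arrays were scaled to the 75th percentile.

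The rule also took in slc7a6os, which is named for lying opposite slc7a6 and encodes no transporter. It read 11.09 and 11.05 on the Bmp2b arrays and 12.52 and 12.45 on the WT arrays, 2.67-fold lower (log2 fold change -1.42, adjusted p = 0.0190), with a further probe lower at -1.50. slc7a6 itself had a value of -0.30 (adjusted p = 0.202).

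Duplicated copies gave a further view of the calls, since zebrafish kept many pairs from a genome duplication. The array held 52 pairs named a and b, of which 21 had both copies tested. In 4 pairs both copies were called, always in the same direction: slc16a9, slc25a47 and slc27a2 higher and slc25a55 lower. In 4 more only a single copy was called, namely slc3a2b, slc25a3a, slc20a1b and slc25a25b, and in 13 neither was. Of all genes tested 17.3% were called, and the same counts over pairs of all genes are not given. Among the copies called higher, slc25a47a was below background on both WT arrays. The sign was shared in 14 pairs and opposite in 7, but 10 of the 21 had a copy that neither array of 1 group read above background. The difference between copies was not tested.

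**Figure D3:**
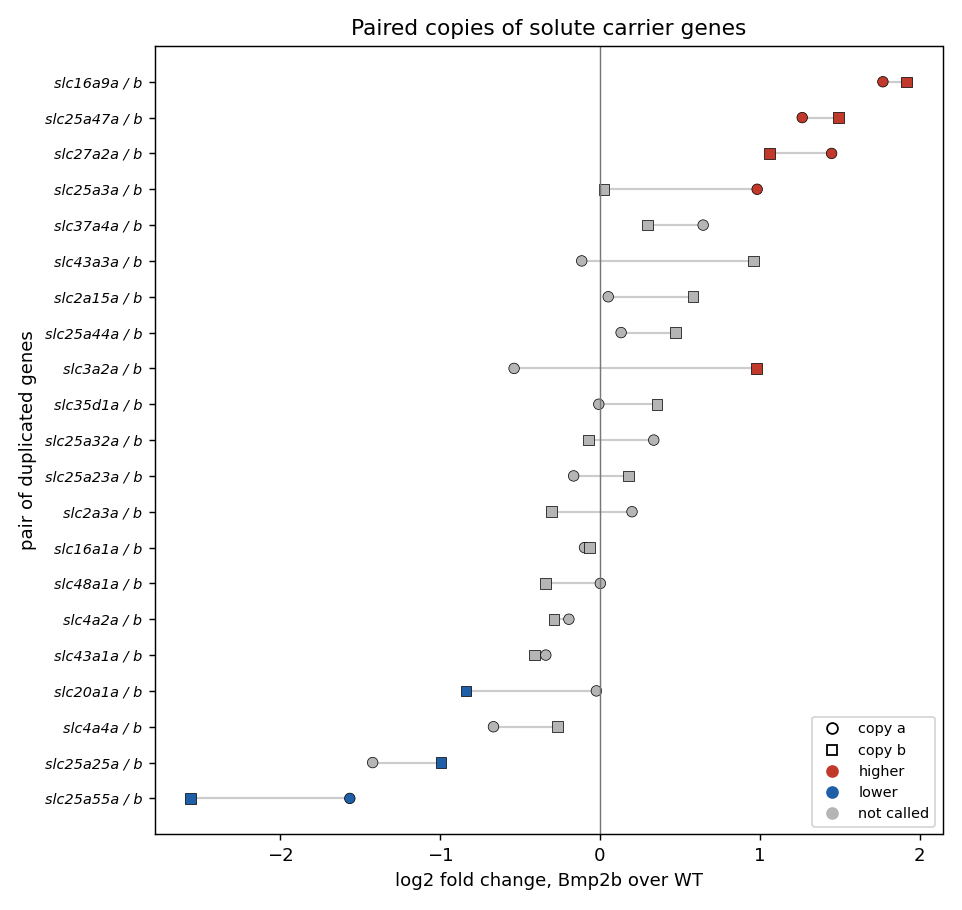
Log2 fold change, Bmp2b over WT, of the a copy (circle) and the b copy (square) in the 21 pairs with both copies tested, with called copies in colour. The pairs slc16a9, slc25a47 and slc27a2 lie to the right with both copies called, slc25a55 lies to the left with both called, and slc3a2 and slc43a3 are the widest pairs that straddle 0, slc43a3a being below background on both Bmp2b arrays.

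The Bmp2b arrays themselves disagreed for part of the genes. The median gap between them was 0.27 log2 units over the 217 genes, against 0.05 between the WT arrays. At least 2-fold gaps between the Bmp2b arrays occurred in 6 genes, and in none between the WT arrays. Of these, slc12a2, slc16a12b, slc17a6b, slc1a2b and slc1a3a were higher on array 2 and slc25a25a on array 1, and none of the 6 was called. A wide gap raises the standard error and so works against a call. slc17a6b, which loads glutamate into synaptic vesicles, read 6.86 and 8.38 on the Bmp2b arrays and 7.02 and 7.04 on the WT arrays, so only array 2 was above WT. slc1a2b and slc1a3a carry glutamate and in the brain mark glia. slc1a3a read 11.24 and 12.30 on the Bmp2b arrays and 12.32 and 12.20 on the WT arrays.

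**Figure D4:**
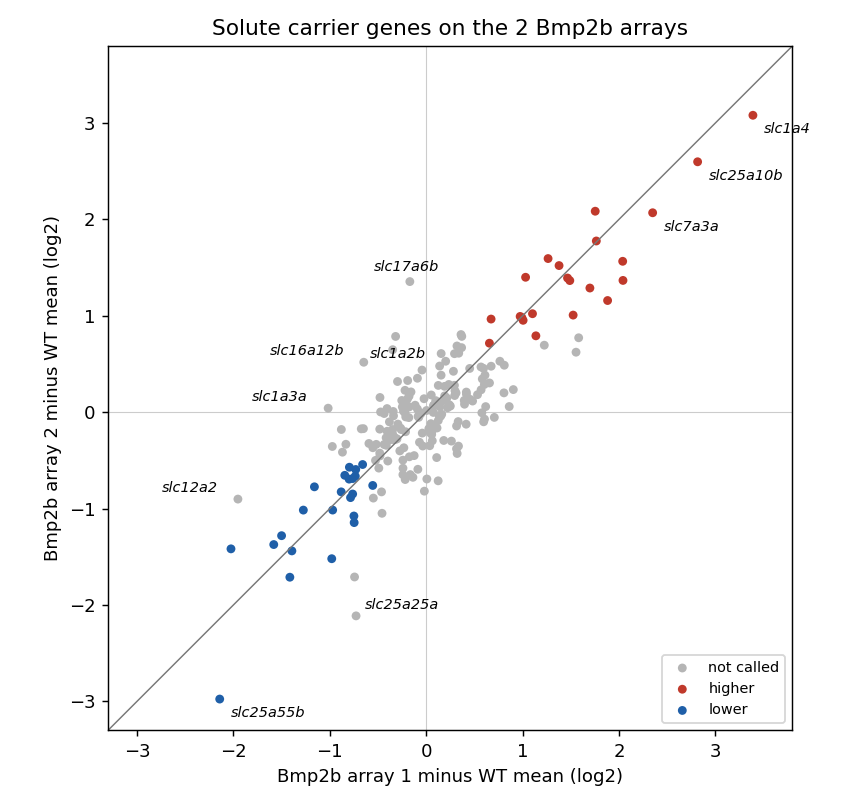
Normalized log2 level on Bmp2b array 1 (horizontal) and Bmp2b array 2 (vertical), each minus the WT mean, for the 217 tested solute carrier genes, with called genes in colour and the line of equal values. The called genes lie near the line at both ends, and the 6 genes with at least a 2-fold gap, such as slc17a6b and slc12a2, lie off it and are grey. The test favours genes whose arrays of a group agree, so this pattern follows in part from the calling.

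Markers of other cell types differed between arrays and between groups. Their calls are to be read beside 9.02% of all genes tested called higher and 8.23% lower. The 13 neural markers had a median log2 difference from WT of -0.39 on Bmp2b array 1 and 1.09 on array 2, none was called, and none was below background on all arrays. On array 1, 8 of the 13 were below WT, and on array 2 none was. The summed log2 level of the neural markers was 14.87 to 15.27 in Bmp2b hearts and 14.79 to 14.83 in WT hearts. By far the brightest of them was tubb5, at 14.56 and 14.20 on the Bmp2b arrays and 14.11 and 14.17 on the WT arrays. Epidermal markers summed to 17.85 to 17.99 in Bmp2b hearts and 16.71 to 16.75 in WT hearts, with 1 of 10 called higher (krt8) and 1 of 11 below background throughout. krt8 was by far the brightest of them, at 17.81 and 17.45 on the Bmp2b arrays and 16.53 and 16.57 on the WT arrays, whereas the epidermal median difference from WT was -0.30 on Bmp2b array 1, with 6 of 10 below WT, and 1.66 on array 2. Pigment cell markers summed to 11.04 to 11.31 in Bmp2b hearts and 10.02 to 10.08 in WT hearts, with 3 of 6 called higher (dct, tyrp1b and pmela) and 2 of 8 below background throughout. Their median differences on Bmp2b arrays 1 and 2 were 0.40 and 0.97, with 3 of 6 below WT on array 1 and 2 of 6, mitfa and pnp4a, on array 2. Blood markers summed to 12.85 to 13.33 in Bmp2b hearts and 13.61 to 13.63 in WT hearts, with 1 of 8 called lower (tal1) and 1 of 10 below background throughout, and the medians were 0.13 and -0.25. Heart muscle markers summed to 19.22 to 19.64 in Bmp2b hearts and 19.85 to 19.99 in WT hearts, with 1 higher (myh6) and 3 lower (myh7, tnnt2a and ttn.2) of 9, and medians of -0.30 and -0.85. Markers of yolk and endoderm summed to 12.63 to 13.66 in Bmp2b hearts and 12.25 to 12.34 in WT hearts, with none of 6 called and 2 of 8 below background throughout. Their median difference was -0.19 on Bmp2b array 1, with 3 of 6 below WT, and 1.40 on array 2. Endothelial markers summed to 15.33 to 15.81 in Bmp2b hearts and 15.61 to 15.62 in WT hearts, with 1 of 6 called lower (lmo2) and medians of -0.33 and -0.70. Skeletal muscle markers summed to 15.12 to 15.71 in Bmp2b hearts and 15.57 to 15.65 in WT hearts, with none of 7 called and medians of 0.08 and 0.18. Of the 10 marker calls, those of myh6 and pmela were kept with scaling to the 75th percentile and the other 8 were not. The part of these cell types in the solute carrier results was not tested.

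Solute carriers known as marks of other cells can be read beside these lists. The pigment cell genes slc24a5 and slc45a2 were not tested because their probes did not exceed background on enough arrays. The red cell genes slc4a1a, an anion exchanger, and slc25a37, a mitochondrial iron carrier, were not called, slc4a1a at 0.15 and slc25a37 below background on both Bmp2b arrays. slc11a2, also needed by red cell precursors, was called higher with its brightest probe and lower with another. Of the neural genes tested, slc32a1 was called lower (-0.75, adjusted p = 0.0319), as was slc18a3b, which was below background on both Bmp2b arrays. slc6a9, a glycine carrier, had a value of -0.64 (adjusted p = 0.0997) and slc17a6b 0.59 (adjusted p = 0.482), and neither passed. The glial genes slc1a2b and slc1a3a, at 0.23 and -0.49, did not pass either. The call of slc32a1 was lost with scaling to the 75th percentile (adjusted p = 0.147).

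Further probes bear on how far a gene's call extends to the gene as a whole. Of the 45 called genes, 14 had another tested probe, 19 probes in all, of which 13 had the same sign and 7 were called in the same direction. Of the 172 uncalled genes, 64 had another tested probe, and in 14 of them another probe was called, 4 probes higher and 11 lower. Of the lower ones, those of slc12a2, slc35f2, slc43a1a, slc4a2a and slc6a22.1 and the dimmer one of slc44a2 were below background on Bmp2b array 1. None of the 4 higher probes was. The Bmp2b arrays were dimmer as a whole, and in raw intensity all 23 lower genes read lower on both Bmp2b arrays than on both WT arrays. Of the 22 higher genes, 9 read higher on both Bmp2b arrays before scaling and 13 lay in between, none reading lower on both.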

How the data were processed

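RNA from zebrafish hearts was measured on single-colour Agilent arrays, 2 from Bmp2b and 2 from WT hearts. Deposited values were raw median spot intensity, per the file headers, of 43803 spots of 43603 probes. A second deposited table held processed intensity values of the same spots, and how its background was removed is not given in the sources used here. Per the submitters' processing notes, Agilent Feature Extraction was used.

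Raw intensities were corrected by normexp with an offset of 50 and no background column, put on a log2 scale and quantile-normalized, and spots of a probe were averaged. A probe was tested where it exceeded 2 times the 5th percentile of raw intensity on at least 2 of 4 arrays, which left 24454 probes. Bmp2b was compared with WT by limma 3.58.1 in R 4.3.3 (lmFit and eBayes, two-sided), on all 4 arrays. The p-values of all 24454 probes were adjusted together (Benjamini-Hochberg) and read at 0.05, and the script was tested on simulated data. A positive log2 fold change is higher in Bmp2b hearts, and errors are limma standard errors. The number of arrays limits the precision. Where neither array of a group exceeded background, the fold is only a bound, set by the lowest level above background on each array of that group.

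The platform annotation gave 517 solute carrier probes, of which 513 matched the current zebrafish gene table, with no symbol changed. Substrate classes follow the family number, with exceptions by gene. The members, classes and lists were chosen with earlier results of these data known, so no list is independent evidence. The genes named are slc1a4, slc7a5 and slc3a2b, the 30 called genes with the largest absolute log2 fold change, the gene with the brightest probe and the largest rise and fall of each class, genes whose probes were called in opposite directions, and marks of other cell types. The other 15 called genes, and uncalled genes outside these, were named after their values were seen.

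Replicate numbers did not pair the arrays (correlation of deviations of same-numbered arrays 0.0935 over 24454 probes). Alternatives covered scaling, background correction, the filter on dim probes, the probe of a gene, the variance prior, the slide, the replicate block and each array left out.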

Additional observations from a re-analysis of the deposited data

How the results depend on the processing

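The 45 called genes were recomputed under 17 alternatives, except that 8 of them were not tested where probes had to be above background on all 4 arrays. In 7 alternatives, which change the test or the filter, fold changes stay as they are by construction. Under the other 10, 448 of 450 values had the same direction. The exceptions were slc12a9, at 0.24 with scaling to the 75th percentile, and slc11a2, at -0.0392 as the mean over probes. Among these 10, the fits with 1 array left out could not turn a sign, because the groups of all 45 called genes did not overlap. Calls depended on how WT was counted. With WT as 1 sample, limma with trend and robust fit gave 3 higher and 1 lower, and without the trend 0 and 0. Leaving out single arrays gave between 0 and 70 higher and between 0 and 79 lower. Without WT replicate 1, or without WT replicate 2, there were 0 calls, and without Bmp2b replicate 1 there were 61 higher and 68 lower. With 1 array left in a group, the spread comes from the other group alone, and the lone array is assumed to vary like it, so leaving out a Bmp2b array sets the spread by the WT arrays, which agree within spot noise. With slide as a random block, whose correlation was set to 0.5 because none could be estimated, the counts were 0 and 0. Scaling to the 75th percentile gave 12 higher and 5 lower, keeping 17 of the 45 calls. The authors' processed intensities gave 19 higher and 9 lower, or 15 and 8 when scaled to the 75th percentile. The higher share of the calls was 70.6%, 67.9% and 65.2% in these settings, beside 48.9% as reported. The same shares over all genes are not given, so a tilt of solute carriers cannot be told apart from one of all genes. The replicate block gave 22 higher and 17 lower and kept 35 of the 45 calls. The median of the solute carrier genes was 0.0133 with cyclic loess, -0.0767 as the mean over probes, 0.013 with no filter on dim probes, 0.084 over the 130 genes above background on all 4 arrays, -0.0991 and -0.0733 with processed intensities without and with scaling to the 75th percentile, and 0.35 with raw intensities so scaled, where the median of all genes moved to 0.14. With 1 array left out it lay between -0.0454 and -0.0139. Genes near background on the dimmer Bmp2b arrays are the least precisely measured.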
